A study of Mus musculus with 24 samples.

Results

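Transcript levels of 10 genes of insulin-like growth factor (IGF) and insulin signalling were followed in gastrocnemius, the large calf muscle of the mouse, by RNA sequencing of 24 bulk libraries. The 10 genes are Igf1, Igf2, Igf1r, Igfbp5, Insr, Irs1, Irs2, Pik3r1, Akt2 and Grb10. They were taken by name from the 54752 gene IDs of the deposited count tables, all 10 were found, and all 10 passed the filter on low counts in every comparison. The libraries form 8 groups of 3 that cross sex, genotype and treatment. Every mouse, controls included, was homozygous for floxed Numb and floxed Numbl (NumbL in the labels). The protein products are endocytic adaptors and known regulators of Notch. The 4 transgene groups carried HSA-MCM in addition: MerCreMer, a Cre that needs tamoxifen to act, driven from the human skeletal actin promoter, hence in muscle fibres and not in the other cells of the muscle. The 4 flox groups had no HSA-MCM. Transgene females, flox females, transgene males and flox males were each given tamoxifen or vehicle. The conditional knockout is therefore the tamoxifen-treated transgene group, and the tamoxifen-treated flox group shows the drug without the recombinase. The sources used here do not give age, strain, dose or timing, and the labels do not say that replicates are separate animals, so the spread behind each p-value is one among libraries and may be technical.

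IGF-I and IGF-II are secreted ligands of the IGF-I receptor, and insulin is the ligand of the closely related insulin receptor. Both receptors are tyrosine kinases that phosphorylate the adaptors IRS-1 and IRS-2, which recruit PI3 kinase through its regulatory subunits, and the lipid that PI3 kinase makes activates Akt kinases. In muscle fibres this cascade is known for glucose uptake, through Akt2, and for protein synthesis and fibre growth. Binding proteins such as IGFBP-5 hold IGFs outside the cell, and GRB10 binds the active receptors and inhibits them. Igf2 and Grb10 are imprinted genes of the mouse, the first known for expression from the paternal allele and the other, in most tissues, for expression from the maternal allele.

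Libraries held 21516819 to 43014516 counts, at most 29982077 in males and at least 31219445 in females, so depth also went with sex. The targeted genes were detected in every library, Numb at 15.7 to 25.1 and Numbl at 2.67 to 6.51 CPM (read counts scaled to library size by TMM over all libraries). A count over the whole gene does not isolate its floxed part. Esr1, part of which belongs to MerCreMer, ranged over 391.8 to 1982 CPM with the transgene and 22.9 to 42.5 CPM without it. For 3 transgene male libraries the title says vehicle and the treatment field says tamoxifen. They are taken as vehicle libraries by title, so the responses of transgene males are given beside those of flox males, which compare flox libraries only. All males were fitted together, however, so the SE and adjusted p of flox males also draw on these 3 libraries. Fitted alone, the 6 flox males gave 917 genes with an adjusted p under 0.05, against 452 in the joint fit. The mean of the 4 pairs and the difference between the sexes are also given from flox libraries alone. The 6 flox males are titled WT. Transgene females, flox females and males were counted in 3 separate tables, so sex and table cannot be told apart in a level, whereas each tamoxifen response is a difference within 1 table. All markers of fast and slow fibres were detected in every library, at uneven levels. The 7 slow fibre markers summed to 123 to 7146 CPM and the 8 fast fibre markers to 1.09e+05 to 2.20e+05 CPM. Slow sums varied inside groups, from 123 to 2411 CPM in tamoxifen transgene males and from 1099 to 5873 CPM in vehicle transgene females.

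Igf2, Pik3r1 and Grb10 are the members whose responses to tamoxifen differed between the sexes, and their start sites are shown because they moved together in males. Of the 10 members, 9 had at least 1 start site in the RefSeq promoter table for GRCm38.p6 (17 in all). Igf2 has 4 start sites there, Pik3r1 has 2 and Grb10 has 2. Gene counts do not say which one was used. For each gene the 250 bases before the start site with the most CpG are given 5′ to 3′ on the strand of the gene, with CpG dinucleotides in capitals. The windows lie at chr7:142658805-142659054 for Igf2, chr13:101768218-101768467 for Pik3r1 and chr11:12037421-12037670 for Grb10, all on the minus strand.
Igf2: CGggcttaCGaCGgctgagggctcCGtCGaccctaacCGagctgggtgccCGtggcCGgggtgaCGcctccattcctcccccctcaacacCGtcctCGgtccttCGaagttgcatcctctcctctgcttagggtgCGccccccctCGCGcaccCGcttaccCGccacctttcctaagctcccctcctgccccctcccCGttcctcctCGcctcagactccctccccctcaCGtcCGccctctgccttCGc
Pik3r1: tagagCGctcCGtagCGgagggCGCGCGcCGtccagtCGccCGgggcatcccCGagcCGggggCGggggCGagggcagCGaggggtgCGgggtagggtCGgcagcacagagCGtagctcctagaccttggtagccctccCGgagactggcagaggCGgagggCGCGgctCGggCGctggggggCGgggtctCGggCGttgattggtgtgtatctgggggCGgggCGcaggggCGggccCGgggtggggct
Grb10: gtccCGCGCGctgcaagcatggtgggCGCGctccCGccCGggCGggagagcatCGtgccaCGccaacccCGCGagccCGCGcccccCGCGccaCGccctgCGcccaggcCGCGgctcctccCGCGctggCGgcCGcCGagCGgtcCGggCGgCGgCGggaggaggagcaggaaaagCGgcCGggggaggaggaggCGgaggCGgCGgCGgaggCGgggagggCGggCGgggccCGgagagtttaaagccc
These windows hold 22 CpG in Igf2, 30 in Pik3r1 and 40 in Grb10, against a median of 6 over 32851 promoters. They were picked for the most CpG, so a value above that median was partly built in. The other windows of the same genes hold 1 to 10 CpG for Igf2, 6 for Pik3r1 and 8 for Grb10. The Igf2 and Grb10 windows shown lie inside the annotated genes, which reach to 142666816 and 12038683. The 50 bases that follow the Grb10 window were found as 1 stretch in 0 of 9 annotated Grb10 transcripts. Those that follow the Igf2 window were found in 1 of 9 annotated Igf2 transcripts. In the 300 bases around each start site, both strands were searched for a FoxO site (TGTTTAC), a cyclic AMP response element (TGACGTCA) and an E-box (CACGTG), of which the last 2 share the core ACGT without containing each other. No window of Igf2, Pik3r1 or Grb10 held any of them. Among all 17 windows, those of Irs1 and Irs2 held an E-box, and none held either of the other motifs. Of all 32851 promoters 3.65% held the FoxO site, 1.79% the cyclic AMP response element and 7.15% the E-box.

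Per exon length, Igfbp5 was the most abundant of the 10, with a median of 89.1 reads per kilobase of exon at CPM scaling over the 24 libraries, followed by Akt2 at 27.8. Irs2, Insr, Grb10 and Irs1 were within a narrow band of medians, at 6.23, 6.06, 5.71 and 5.30. Pik3r1 had a median of 2.88, Igf1r of 1.15, Igf1 of 0.757 and Igf2 of 0.193 on this scale. Igf2, known for high expression in fetal tissues, was thus the least abundant member, with only 11 to 66 counts per library, which limits its precision. Levels per length divide by all annotated exons and understate genes of which the muscle uses few.

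**Figure D1:**
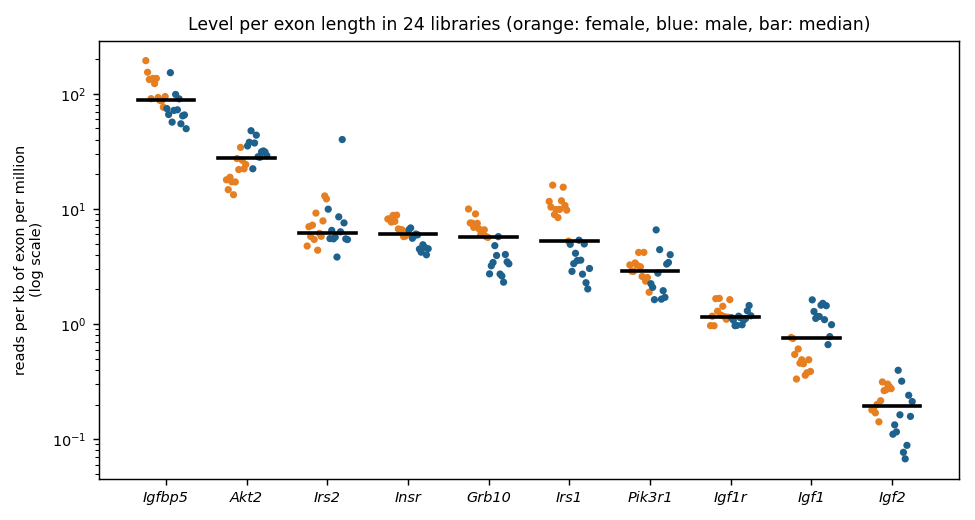
Reads per kilobase of annotated exon at CPM scaling (log scale) of each member in 24 libraries, 1 point per library, orange for females and blue for males, with the median as a bar. Igfbp5 lies at the top with a median of 89.1 and Igf2 at the bottom with a median of 0.193. In Irs2 a lone library lies at 40.1.

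Over the 4 pairs of groups, tamoxifen against vehicle moved 5 of the 10 members past the threshold, an adjusted p under 0.05 in edgeR's quasi-likelihood test with Benjamini-Hochberg adjustment over all genes tested, which is the test behind every adjusted p of a gene given here unless another tool is named. In this comparison 8.83% of 16670 genes passed, 3.95% higher and 4.88% lower. Igf2, Igf1r, Pik3r1 and Grb10 were higher after tamoxifen and Igf1 was lower. The median log2 change of the 10 members was -0.09, against 0.00 over all genes tested. Because this value is a mean of 4 pairs, it hides that the pairs differ, and each member is therefore given pair by pair. The pairs within a sex share no library, while the mean over pairs uses the same libraries again.

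**Figure D2:**
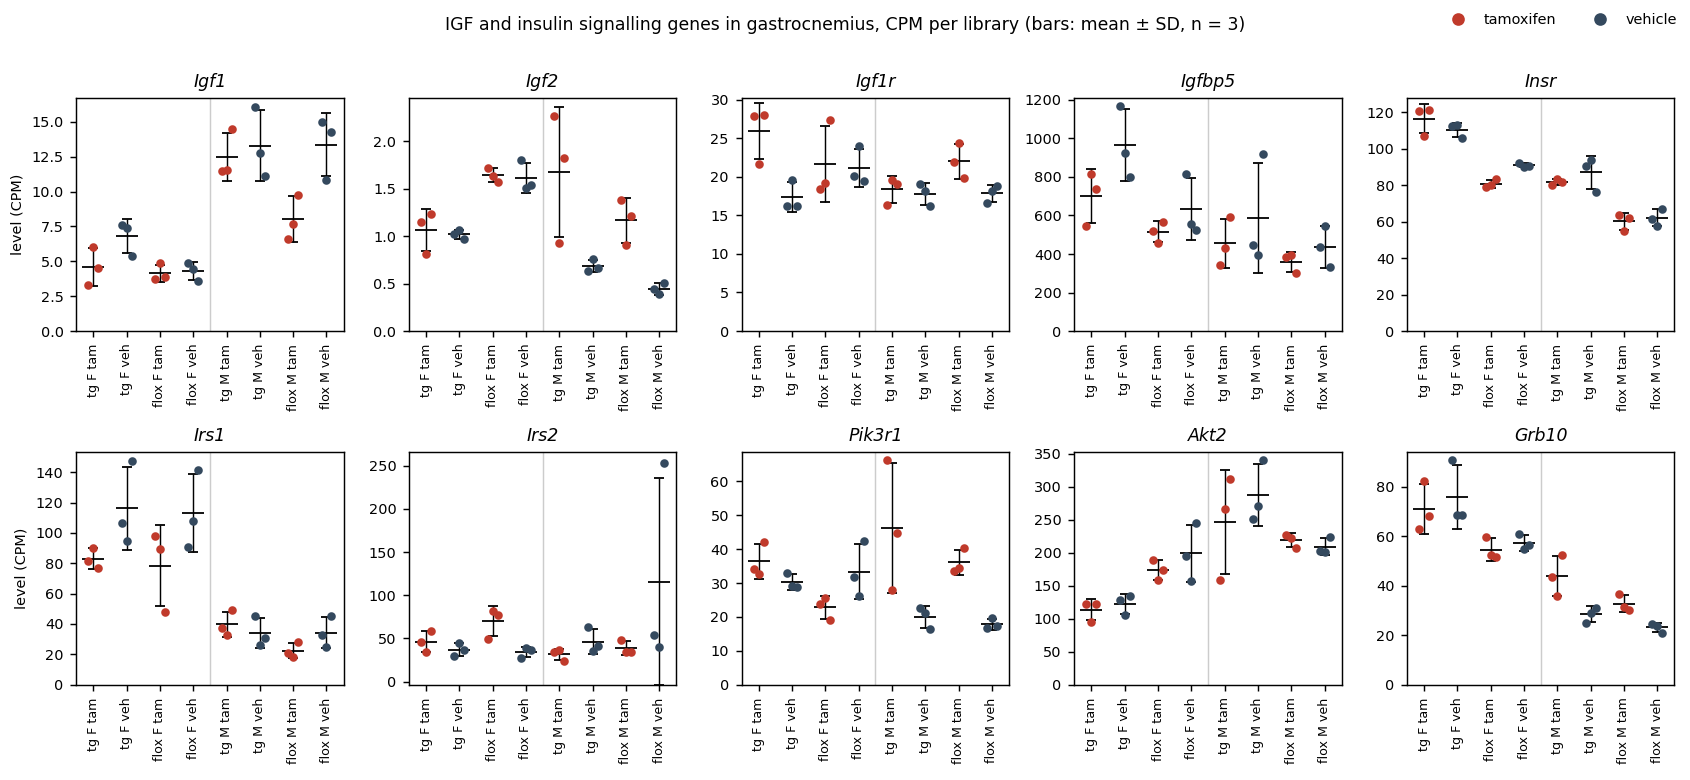
Level in CPM of each member in every library of the 8 groups (tg, transgene; F, female; M, male; tam, tamoxifen in red; veh, vehicle in dark blue-grey), with the mean as a line and the SD as a bar (n = 3). Igf2, Pik3r1 and Grb10 lie higher after tamoxifen than after vehicle in both male pairs without overlap, and the Irs2 library at 253.5 CPM stands alone.

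Igf2, which encodes the ligand IGF-II (chromosome 7, 142650766 to 142666816, minus strand, GRCm38), was higher after tamoxifen in males of both genotypes. In transgene males it had 2.27, 0.932 and 1.82 CPM after tamoxifen, against 0.632, 0.762 and 0.662 CPM after vehicle. In flox males it had 1.38, 0.902 and 1.21 CPM after tamoxifen, against 0.440, 0.386 and 0.506 CPM after vehicle. In neither male pair did the groups overlap, and the ratio of means was 2.45 in transgene and 2.62 in flox males. Transgene females had 1.15, 0.810 and 1.24 CPM after tamoxifen, against 1.03, 1.06 and 0.969 CPM after vehicle. Flox females had 1.72, 1.63 and 1.57 CPM after tamoxifen, against 1.80, 1.51 and 1.54 CPM after vehicle. In both female pairs the libraries overlapped. The log2 change was 1.30 ± 0.32 (SE; adjusted p = 0.0974) in transgene males, 1.39 ± 0.35 (adjusted p = 0.0539) in flox males, 0.08 ± 0.25 for transgene females and 0.02 ± 0.20 for flox females, and over the 4 pairs Igf2 rose by 0.69 ± 0.13 (adjusted p = 0.00185). Igf2 shares 62.8% of its exon bases with Gm49394, a gene model on the same strand that has no count in any library, and 1.71% with the antisense gene Igf2os, and the strand setting of the counting is not given.

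Igf1, the ligand IGF-I made by liver and locally by muscle (chromosome 10, 87858265 to 87937042, plus strand), fell by 0.36 ± 0.10 on the log2 scale over the 4 pairs (adjusted p = 0.0316). Flox males had 6.56, 7.71 and 9.78 CPM after tamoxifen, against 14.99, 10.8 and 14.3 CPM after vehicle, with no overlap. This was the pair in which Igf1 passed the threshold, with a log2 change of -0.74 ± 0.18 (adjusted p = 0.0497), as did no other of the 10 members there, where 2.89% of all genes passed. The call sits at the threshold: it was lost with RLE size factors (adjusted p = 0.0508), with limma-voom (0.0737) and without any of tamoxifen libraries 1, 2 and 3 or vehicle libraries 1 and 3 of that pair (0.0588 to 0.187), while the log2 change stayed between -0.91 and -0.62. Transgene females had 3.30, 6.01 and 4.53 CPM after tamoxifen, against 7.57, 7.42 and 5.39 CPM after vehicle, a log2 change of -0.55 ± 0.23 (adjusted p = 0.284). Transgene males, with means of 12.5 ± 1.70 and 13.3 ± 2.54 CPM after tamoxifen and vehicle (SD, n = 3 each), and flox females, with 4.14 ± 0.615 and 4.30 ± 0.665 CPM, changed by -0.09 ± 0.18 and -0.05 ± 0.18. In bulk muscle, fewer cells of a type and less RNA per cell cannot be told apart. Macrophages are a known source of IGF-I in muscle, and the summed level of their 8 listed markers, all detected, was 55.5 to 62.9 CPM after tamoxifen against 62.1 to 92.7 CPM after vehicle in flox males, and 45.0 to 77.4 CPM against 37.8 to 88.0 CPM in transgene males. In females it was 27.8 to 31.4 CPM against 22.4 to 53.5 CPM with the transgene and 35.3 to 44.6 CPM against 40.1 to 51.1 CPM without it. Over the 4 pairs, where 8.83% of all genes passed, 1 of the 8 markers did. This was Cd68, which fell by 0.64 ± 0.20 on the log2 scale (adjusted p = 0.0446), beside a median of -0.18 for the 8. Their part in the result was not tested.

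Igfbp5, a binding protein abundant in muscle and known to change during myogenic differentiation (chromosome 1, 72857932 to 72874884, minus strand), had lower means after tamoxifen in all 4 pairs, with overlap in each. Transgene females averaged 700 ± 140 CPM after tamoxifen and 964 ± 186 CPM after vehicle (SD, n = 3 each). Flox females averaged 516 ± 54.7 and 634 ± 160 CPM, transgene males 455 ± 128 and 587 ± 287 CPM, and flox males 360 ± 52.8 and 437 ± 107 CPM, tamoxifen before vehicle. The large spread of transgene vehicle males came from 1 library at 917 CPM, the others being at 447 and 397 CPM. The log2 change over the 4 pairs, -0.35 ± 0.14, did not pass the threshold (adjusted p = 0.150).

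Igf1r, the receptor of both IGFs (chromosome 7, 67952827 to 68233668, plus strand), rose by 0.24 ± 0.07 on the log2 scale over the 4 pairs (adjusted p = 0.0321), with unequal pairs. Transgene females had 27.9, 21.7 and 28.1 CPM after tamoxifen, against 16.3, 19.6 and 16.2 CPM after vehicle. Flox males had 21.9, 24.3 and 19.8 CPM after tamoxifen, against 16.5, 18.2 and 18.8 CPM after vehicle. In these pairs the groups did not overlap, and the log2 changes were 0.59 ± 0.12 (adjusted p = 0.0589) in transgene females and 0.30 ± 0.11 (adjusted p = 0.173) in flox males. In flox females, 21.7 ± 4.92 and 21.2 ± 2.44 CPM, and transgene males, 18.4 ± 1.76 and 17.8 ± 1.43 CPM (mean ± SD after tamoxifen and after vehicle, n = 3 each), the libraries overlapped. None of the 10 members passed in transgene females, where 1.32% of all genes did. There 5 members had an unadjusted p under 0.05, as did 2385 of the 14211 genes tested. DESeq2 called Igf1r alone of the members and 681 genes in all, and limma-voom called no member and 146 genes.

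The calls of Igf1, Igf1r and Grb10 over the 4 pairs depended on single libraries, while those of Igf2 and Pik3r1 held in each of the 24 fits that left out a library and with RLE size factors, no filter on low counts, limma-voom and DESeq2. In a fit of the flox libraries alone, added after seeing the data, Igf2 was the 1 member called (0.71 ± 0.17, adjusted p = 0.0293). Pik3r1 was at 0.24 ± 0.11 there (adjusted p = 0.270), Igf1 at -0.39 ± 0.13 (0.111), Igf1r at 0.17 ± 0.10 (0.389) and Grb10 at 0.22 ± 0.07 (0.0801). Over the 24 fits that left out a library, Igf1 had log2 changes from -0.42 to -0.30 and adjusted p of at most 0.0743. It was lost in 13 of these fits. These were the fits without vehicle libraries 1 and 2 or tamoxifen library 1 of transgene females, vehicle libraries 1 and 2 or tamoxifen libraries 1 and 3 of flox females, vehicle library 1 or tamoxifen library 2 of transgene males, and vehicle libraries 1 and 3 or tamoxifen libraries 1 and 2 of flox males. Igf1r lay at 0.19 to 0.27 over the same 24 fits, with adjusted p of at most 0.0660, and was lost in 12 fits. In females they lacked library 1 or 3 of either transgene group, flox vehicle library 1 or 3, or flox tamoxifen library 3. In males they lacked transgene vehicle library 3, transgene tamoxifen library 2 or 3, flox vehicle library 1, or flox tamoxifen library 2. Grb10 lay at 0.20 to 0.28 over the same 24 fits, with adjusted p of at most 0.0530, and was lost in 4 fits. They lacked transgene female vehicle library 3 or tamoxifen library 2, transgene male vehicle library 1 or flox male tamoxifen library 1.

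Insr, the insulin receptor (chromosome 8, 3122061 to 3279617, minus strand), differed between transgene and flox males and not detectably by treatment. After vehicle, transgene males had 90.5, 94.1 and 76.5 CPM, against 61.6, 57.9 and 67.1 CPM in flox males. After tamoxifen, transgene males had 80.1, 83.3 and 81.9 CPM, against 63.9, 54.9 and 62.1 CPM in flox males. Neither set overlapped, and Insr was higher in transgene males by 0.47 ± 0.10 after vehicle (adjusted p = 0.0402) and by 0.44 ± 0.10 after tamoxifen (adjusted p = 0.0218). It was the one member called in either comparison, where 0.947% of genes passed after vehicle and 5.23% after tamoxifen. The call after vehicle was lost without library 1 or 2 of either group (log2 0.41 to 0.57 over all fits that left out a library, adjusted p at most 0.146) and with the 6 vehicle males fitted alone (adjusted p = 0.102), and that after tamoxifen without library 2 or 3 of either group (0.38 to 0.48, at most 0.0967). The vehicle comparison rests on the 3 libraries with conflicting labels. Markers of other cells and fibre types also differed between these males, with 1 of 71 called in each comparison. After vehicle the median log2 differences of the lists ran from -2.05 (adipocytes) to 0.49 (satellite cells). After tamoxifen they ran from -1.12 (slow fibres) to 0.27 (fibro-adipogenic progenitors and fibroblasts). The part of tissue make-up in the Insr difference was not tested. In females, where genotype and table cannot be told apart, transgene libraries had 107 to 121 CPM after tamoxifen and 106 to 113 CPM after vehicle, and, with no overlap between treatments, flox libraries 79.1 to 83.3 CPM after tamoxifen and 90.02 to 92.1 CPM after vehicle. The tamoxifen response of Insr was between -0.17 and 0.09 on the log2 scale in the 4 pairs, and none passed the threshold.

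Irs1, the adaptor of both receptors (chromosome 1, 82233101 to 82291416, minus strand), had a lower mean after tamoxifen in 3 of the 4 pairs. Transgene females had 81.7, 90.4 and 77.0 CPM after tamoxifen, against 106, 94.9 and 147 CPM after vehicle, without overlap. Flox females averaged 78.5 ± 26.7 CPM after tamoxifen and 113 ± 25.8 CPM after vehicle, and flox males 22.4 ± 4.84 and 34.3 ± 10.4 CPM (SD, n = 3 each), with overlap in both. In transgene males the mean was higher after tamoxifen, 39.7 ± 8.38 against 34.0 ± 9.85 CPM. The log2 change over the 4 pairs was -0.35 ± 0.14 (adjusted p = 0.149). Libraries of females, at 48.0 to 147 CPM, lay mostly above those of males, at 18.5 to 48.9 CPM, which is also a difference between tables. Irs1 shares 30.9% of its exon bases with the opposite-strand gene model Gm9747, which averaged 0.79 counts.

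Irs2, the second adaptor, whose transcript is known to rise in fasting liver (chromosome 8, 10984681 to 11008458, minus strand), rested on a single library in males. Flox males had 47.9, 34.8 and 34.3 CPM after tamoxifen, against 54.0, 40.0 and 253.5 CPM after vehicle. The other 23 libraries lay at 24.2 to 82.1 CPM. The log2 change in flox males was -1.57 ± 0.64 with vehicle library 3 and -0.28 ± 0.28 without it, the mean of both male pairs was -1.06 ± 0.45 with it and -0.42 ± 0.19 without it, and the mean of 4 pairs turned from -0.20 ± 0.25 to 0.13 ± 0.14 when it was left out. Transgene males had 34.8, 36.0 and 24.2 CPM after tamoxifen, against 62.9, 34.97 and 41.2 CPM after vehicle. Flox females had 49.8, 82.1 and 77.3 CPM after tamoxifen, against 27.7, 38.8 and 36.6 CPM after vehicle, without overlap, and transgene females 45.7, 34.4 and 58.2 CPM, against 30.1, 44.3 and 36.5 CPM. The change in flox females, 1.02 ± 0.22, did not pass (adjusted p = 0.322). There 0.131% of genes passed and 0 members, and 3 members had an unadjusted p under 0.05, as did 1257 of the 14539 genes tested. DESeq2 called Irs2 (adjusted p = 1.4e-05) and 143 genes in all, while limma-voom called no member and 10 genes.

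Pik3r1 encodes the p85 alpha regulatory subunit of PI3 kinase and its shorter forms (chromosome 13, 101680563 to 101768217, minus strand). In transgene males it had 66.3, 27.9 and 44.6 CPM after tamoxifen, against 16.4 to 22.6 CPM in the 3 vehicle libraries. In flox males it had 33.5, 34.5 and 40.4 CPM after tamoxifen, against 16.6, 19.6 and 17.2 CPM after vehicle. The male groups did not overlap, and the ratio of means was 2.31 in transgene and 2.03 in flox males. Transgene females had 34.2, 32.7 and 42.2 CPM after tamoxifen, against 32.9, 29.1 and 28.9 CPM after vehicle. Flox females had 23.8, 25.6 and 19.1 CPM after tamoxifen, against 31.7, 26.1 and 42.3 CPM after vehicle, lower in each library. The log2 changes were 1.21 ± 0.26 (adjusted p = 0.0628) in transgene males, 1.01 ± 0.26 (0.0640) in flox males, 0.28 ± 0.11 (0.247) for transgene females and -0.55 ± 0.19 (0.477) for flox females, and over the 4 pairs Pik3r1 rose by 0.49 ± 0.11 (adjusted p = 0.0110).

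Akt2, the Akt kinase known for insulin-stimulated glucose uptake (chromosome 7, 27591552 to 27640826, plus strand), passed in no comparison. Its means after tamoxifen and vehicle were 113 ± 16.1 and 122 ± 15.4 CPM in transgene females, 174 ± 14.9 and 199 ± 43.9 CPM in flox females, 246 ± 78.6 and 288 ± 47.1 CPM in transgene males and 219 ± 10.5 and 209 ± 12.8 CPM in flox males (SD, n = 3 each). The libraries overlapped in all 4 pairs, and the log2 changes lay between -0.22 and 0.06.

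Grb10, the inhibitor at the receptors (chromosome 11, 11930508 to 12038683, minus strand), was higher after tamoxifen in both male pairs and overlapped in both female pairs. Transgene males had 43.6, 35.8 and 52.2 CPM after tamoxifen, against 24.8, 29.2 and 31.1 CPM after vehicle. Flox males had 36.5, 31.6 and 30.3 CPM after tamoxifen, against 24.7, 23.8 and 21.01 CPM after vehicle. The groups did not overlap in males. Transgene females averaged 71.1 ± 10.1 CPM after tamoxifen and 76.0 ± 12.8 CPM after vehicle, and flox females 54.6 ± 4.64 and 57.4 ± 3.17 CPM (SD, n = 3 each), with overlap in both. Grb10 rose by 0.64 ± 0.13 in transgene males (adjusted p = 0.0451), the one member called there, where 0.889% of genes passed. It was called in that pair without tamoxifen library 2 and was lost without each of the other 5 libraries (log2 0.49 to 0.76 over the 6 fits, adjusted p at most 0.196), with limma-voom (0.0605) and with transgene males fitted alone (0.237). The change was 0.49 ± 0.14 in flox males (adjusted p = 0.0707) and 0.24 ± 0.07 over the 4 pairs (adjusted p = 0.0262).

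**Figure D3:**
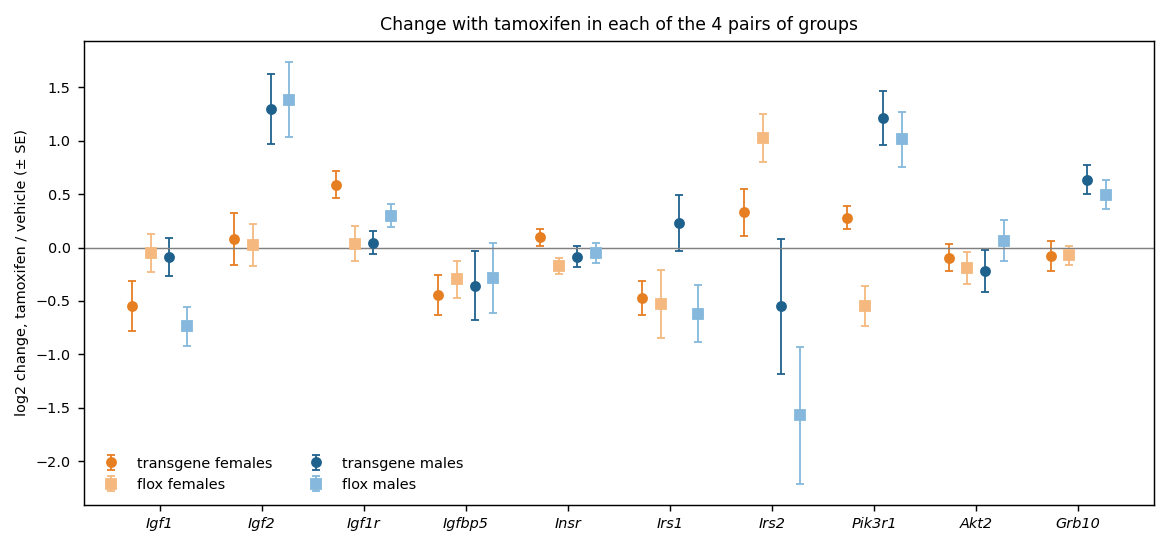
Log2 change with tamoxifen against vehicle (± SE, edgeR) of each member in transgene females, flox females, transgene males and flox males. For Igf2, Pik3r1 and Grb10 both male values lie above both female values, and the SE of Irs2 in males is the widest.

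The tamoxifen responses of Igf2, Pik3r1 and Grb10 were lower in females than in males when the difference itself was tested in 1 fit over the 24 libraries. Of all genes, 0.708% passed this test and 0.372% passed with the female response lower, and 3 of the 10 members passed, all 3 with the female response lower. The female minus male response was -1.30 ± 0.27 for Igf2 (adjusted p = 0.0186), -1.26 ± 0.23 for Pik3r1 (adjusted p = 0.0106) and -0.65 ± 0.13 for Grb10 (adjusted p = 0.0186). All 3 calls held in each of the 24 fits that left out 1 library, with values from -1.43 to -1.16 for Igf2, from -1.38 to -1.08 for Pik3r1 and from -0.71 to -0.57 for Grb10, and with RLE size factors, no filter, limma-voom and DESeq2. From the flox libraries alone, which leave out the 3 libraries with conflicting labels, Pik3r1 kept its call (-1.58 ± 0.22, adjusted p = 0.00841). The call was lost for Igf2 (-1.38 ± 0.34, adjusted p = 0.117) and for Grb10 (-0.58 ± 0.13, adjusted p = 0.0827) in that fit of 12 libraries. The means of both genotypes, computed after the data were seen, were 0.05 ± 0.14 in females and 1.34 ± 0.24 in males for Igf2, -0.14 ± 0.12 in females and 1.11 ± 0.18 in males for Pik3r1, and -0.08 ± 0.09 in females and 0.57 ± 0.10 in males for Grb10. In males the 3 genes rose, in a mean that includes those 3 libraries (adjusted p = 0.00646 for Igf2, 0.00629 for Pik3r1 and 0.00437 for Grb10) where 4.37% of all genes were called and 2.08% were called higher. In females 3.2% of genes were called and 0 members, and 4 members had an unadjusted p under 0.05, as did 2756 of the 15182 genes tested. DESeq2 called Irs1 and Irs2 of the members and 874 genes in all, and limma-voom called no member and 444 genes. These means reuse the libraries of the single pairs.

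**Figure D4:**
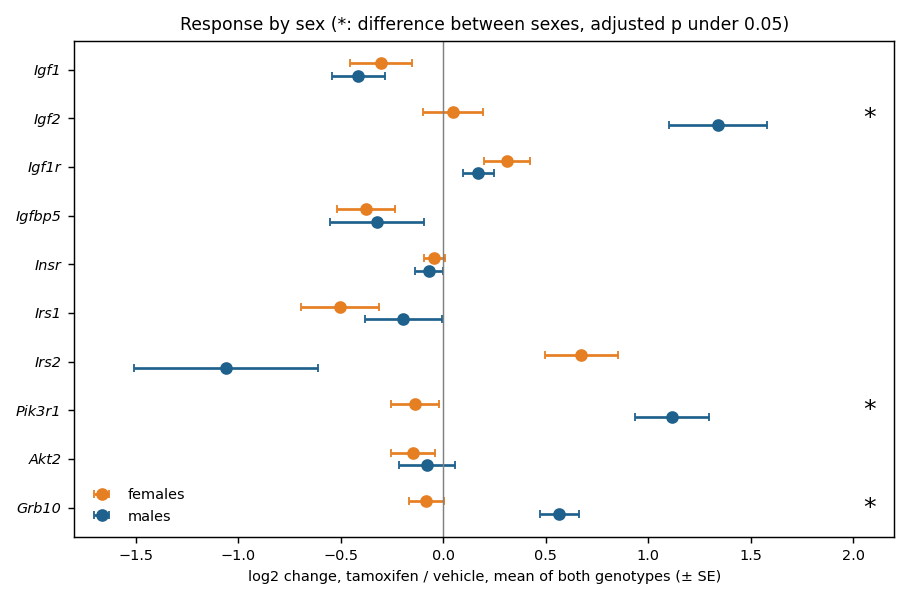
Log2 change with tamoxifen against vehicle, mean of both genotypes (± SE), in females (orange) and males (blue) for each member, with an asterisk where the difference between the sexes had an adjusted p under 0.05. Males lie at 1.34 for Igf2, 1.11 for Pik3r1 and 0.57 for Grb10 and females near 0.

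Irs2 had the largest difference in the other direction, 1.73 ± 0.50, which did not pass (adjusted p = 0.140). It was 1.08 ± 0.27 without vehicle library 3 of flox males (adjusted p = 0.0960), 1.94 and past the threshold without vehicle library 2 (adjusted p = 0.0423), and it passed in DESeq2 (adjusted p = 0.0311). For the other 6 members the difference between the sexes lay between -0.31 and 0.13. Sex is confounded with the table, and whether tamoxifen was given alike in both is not stated, so sex and handling of the tables cannot be told apart here either.

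Of the 72 markers of other cells and fibre types, 0 passed the test of the difference between the sexes, where 0.708% of all genes passed. At that share, the count does not set the markers apart from other genes. The summed level of 8 markers of fibro-adipogenic progenitors and fibroblasts was 625 to 708 CPM after tamoxifen against 411 to 583 CPM after vehicle in transgene males, and 381 to 548 CPM against 402 to 640 CPM in flox males. Lum, a fibroblast proteoglycan gene, was higher by 0.55 ± 0.14 over both male pairs (adjusted p = 0.0446). It was the one marker called in that comparison, where 4.37% of all genes passed. The 6 endothelial markers summed to 179 to 246 CPM after tamoxifen against 210 to 246 CPM after vehicle in transgene males, and to 158 to 211 CPM against 174 to 287 CPM in flox males. The 5 markers of regenerating fibres summed to 42.0 to 52.1 CPM after tamoxifen against 36.9 to 43.0 CPM after vehicle in transgene males, and to 42.9 to 73.8 CPM against 40.6 to 46.9 CPM in flox males. Their median log2 change, over the 4 tested, was 0.56 in transgene and 0.37 in flox males. Their median female minus male response, over the 5 tested in that comparison, was -0.90, the lowest of the 12 lists. The genes of this list went both ways. Over the 4 pairs of groups Myh3 rose by 1.01 ± 0.30 (adjusted p = 0.0487) and Myod1 fell by 0.63 ± 0.13 (adjusted p = 0.00454). The 6 adipocyte markers summed to 115.0 to 154.7 CPM after tamoxifen against 100.4 to 142.7 CPM after vehicle in transgene males, with a median log2 change of 1.06, and to 127 to 288 CPM against 134 to 212 CPM in flox males, with a median of 0.01. Both of these sums overlapped between treatments in both male pairs. The summed fibroblast markers were higher after tamoxifen without overlap in transgene males and overlapped in flox males. Slow fibre markers, 7 genes, summed to 123 to 2411 CPM against 351 to 2953 CPM in transgene males and to 2328 to 2961 CPM against 2079 to 2605 CPM in flox males. The part of these cells in the result was not tested.

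No member's response to tamoxifen was shown to depend on the transgene. The transgene minus flox response was called for 0 of 10 members in males, in females and over both sexes, where 0.0128%, 0% and 0.012% of all genes passed. Unadjusted p was under 0.05 for 2, 3 and 1 members in the same order, over all genes for 1290, 1145 and 1335, and DESeq2 and limma-voom called no member, while over all genes DESeq2 called 75, 42 and 20. In males the difference of responses was -0.09 ± 0.47 for Igf2, 0.20 ± 0.36 for Pik3r1 and 0.14 ± 0.19 for Grb10. For Pik3r1 in females it was 0.83 ± 0.23 (adjusted p = 0.423). For Igf1 it was 0.65 ± 0.26 in males (adjusted p = 0.540) and -0.50 ± 0.30 in females (adjusted p = 0.784). The SEs of up to 0.89 leave room for differences of the size of the responses themselves. After tamoxifen, transgene males also differed from flox males by 0.63 ± 0.18 for Igf1 (adjusted p = 0.0650), 0.82 ± 0.27 for Irs1 (0.109) and 0.42 ± 0.13 for Grb10 (0.0901), none past the threshold.

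Across the 8 groups, most neighbours in the order of mean levels could not be separated by their libraries. Of the 70 neighbouring pairs of groups in the 10 orders, 59 overlapped. The same was not counted over all genes, so the number describes how finely the groups can be ordered and nothing particular to these members. All 7 neighbours overlapped for Igf1r, Igfbp5 and Irs2, 6 of 7 for Igf1, Irs1, Pik3r1 and Akt2, 5 for Insr and Grb10 and 4 for Igf2. In Igf2 the order ran from 0.444 CPM in vehicle flox males and 0.685 CPM in vehicle transgene males, each apart from its upper neighbour, to 1.68 CPM in tamoxifen transgene males. In Pik3r1 it ran from 17.8 CPM in vehicle flox males to 46.3 CPM in tamoxifen transgene males, and in Grb10 from 23.2 CPM in vehicle flox males to 76.0 CPM in vehicle transgene females. Igf1 was lowest in tamoxifen flox females, at 4.14 CPM, and highest in vehicle flox males, at 13.4 CPM, with tamoxifen flox males and tamoxifen transgene males the pair of neighbours that did not overlap.

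Of the wider list of 84 other genes of the pathway, chosen for their roles with earlier results known, 77 were tested over the 4 pairs, and 6 rose and 2 fell. Over all genes 8.83% were called in this comparison, 3.95% higher and 4.88% lower, and the list's share was close to it. The median log2 change of the list was 0.00, and that over all genes 0.00. Foxo3, a transcription factor that Akt holds out of the nucleus, rose by 0.50 ± 0.06 (adjusted p = 1.85e-05). Sesn1, a stress-induced inhibitor of mTORC1, rose by 0.32 ± 0.06 (0.00132), and Tbc1d1, named because it also rose in both male pairs, a brake on glucose transporter traffic that Akt phosphorylates, by 0.67 ± 0.16 (0.0136). Stc2, an inhibitor of the protease that cleaves IGF binding proteins, rose by 0.83 ± 0.16 (0.00180). Eif4ebp1 (0.38 ± 0.08) and 1 more gene rose, and Rictor (-0.28 ± 0.06) and Trib2 (-0.33 ± 0.07) fell.

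Stc2 and Sesn1 were the other pathway genes whose responses differed between the sexes, 2 of 77 tested, where 0.708% of all genes passed. In transgene males Stc2 had 6.35, 4.49 and 4.10 CPM after tamoxifen, against 0.948, 1.16 and 2.15 CPM after vehicle, and in flox males 2.63, 3.20 and 4.43 CPM, against 0.840, 1.12 and 0.322 CPM. In transgene females it had 4.40, 4.16 and 6.37 CPM after tamoxifen, against 10.8, 11.9 and 8.75 CPM after vehicle, and in flox females 11.5, 6.86 and 8.97 CPM, against 6.87, 5.60 and 7.73 CPM. Stc2 was thus higher in both male pairs and lower in transgene females, each without overlap, and its female minus male response was -2.30 ± 0.31 (adjusted p = 0.000890). Sesn1 averaged 30.7 ± 5.67 CPM after tamoxifen and 18.8 ± 1.89 CPM after vehicle in transgene males, 36.1 ± 0.844 and 19.1 ± 2.54 CPM in flox males, 44.3 ± 2.09 and 53.7 ± 1.78 CPM in transgene females and 38.2 ± 1.45 and 39.7 ± 6.94 CPM in flox females (SD, n = 3 each). Its female minus male response was -0.98 ± 0.12 (adjusted p = 0.000250). Foxo3 missed the threshold in that test (-0.53 ± 0.13, adjusted p = 0.0539), as did Tbc1d1 (-0.98 ± 0.32, adjusted p = 0.201).

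In single pairs the other pathway genes were called as follows. In transgene males Stc2, Sesn1 and Tbc1d1 rose, 3 of 77, where 0.889% of all genes passed. In flox males 7 of 77 rose, among them these 3, Foxo3, Pik3ip1 and Igfbp2, and none fell, where 2.89% of all genes passed. Igfbp2, a binding protein gene, had 1.98, 0.564 and 2.40 CPM after tamoxifen in flox males, against 0.0400, 0.0351 and 0.184 CPM after vehicle, from 1, 1 and 4 counts after vehicle. In transgene females Foxo3 and Ptprf rose and Stc2 fell, 3 of 73, where 1.32% of all genes passed, and in flox females none of 75 passed, where 0.131% of all genes did. After tamoxifen, transgene males had 5 of 77 genes higher than flox males, among them Pik3ca, Foxo6 and Tbc1d4, and 4 lower, among them Igfbp2 and Pik3ip1, where 5.23% of all genes passed, and after vehicle 0 of 77 passed, where 0.947% did. The difference itself, the transgene minus flox response in males, was called for 0 of 77 of these genes. Pik3ip1, an inhibitor of PI3 kinase, had 23.4, 35.5 and 24.7 CPM in tamoxifen transgene males, against 65.7, 73.4 and 67.2 CPM in tamoxifen flox males, a log2 difference of -1.31 ± 0.20 (adjusted p = 0.00472).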

How the data were processed

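The deposited values are raw counts of reads per gene (Ensembl IDs), in 3 tables from the authors. The submitters' processing notes name STAR, featureCounts and limma, with the builds GRCm38 and mm10, without roles or versions. The sources used here give neither library kit nor strand setting. Symbols, coordinates and exon lengths came from GENCODE M21 (GRCm38), in which 54723 of 54752 IDs were matched. Groups came from the labels, with 3 transgene males grouped as vehicle by title and design text. Tests used edgeR 4.0.16 in R 4.3.3 (TMM scaling, filterByExpr with minimum count 10 and minimum total 15, robust quasi-likelihood F-test, Benjamini-Hochberg over all genes tested, threshold 0.05). Single female pairs were fitted on 6 libraries, comparisons over both female pairs and those of males on 12, and comparisons over sexes on 24. The SE is the log2 change divided by the square root of F. Alternatives were RLE size factors, no filter, limma-voom (limma 3.58.1), DESeq2 1.42.0, other sets of libraries, a replicate block and leaving out each library. The procedure was tested on simulated data. Shared control libraries link the comparisons. The genes named were the 10 members, up to 6 pathway genes past the threshold per comparison by smallest p and, for each member, the 2 genes most like it in pattern. The 10 members and the gene lists were chosen with earlier results of these data known, and the means of both pairs within a sex and the fits of flox libraries alone were added after seeing the data.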

Additional observations from a re-analysis of the deposited data

Results flagged for a closer look

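The response to tamoxifen differed between females and males, by a test of the difference itself, for 3 of the 10 members, where 0.708% of all genes passed and 0.372% passed with the female response lower. The female minus male log2 response was -1.30 for Igf2, with tamoxifen above vehicle in males of both genotypes without overlap and overlapping groups in females. It was -1.26 for Pik3r1, where flox females were lower after tamoxifen without overlap. It was -0.65 for Grb10, where both female pairs overlapped. From flox libraries alone, without the 3 libraries whose labels conflict, Pik3r1 was called (adjusted p = 0.00841) and Igf2 (0.117) and Grb10 (0.0827) were not. Sex and count table cannot be told apart in this design. No other member's difference passed, and groups of 3 are too small for the check of single outlying samples.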

How the results depend on the processing

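Of 2170 recomputed member values, 2080 kept their direction and side of the threshold or stayed uncalled, 58 lost a call, 32 gained one, and no called value changed sign; 99 of 1814 values called in neither fit changed sign. The number of members called in the mean of the 4 pairs (5) was 3 to 5 when 1 library was left out and 1 from flox libraries alone (added after seeing the data), and for the female minus male response (3) it was 3 to 4, and 1 from flox libraries alone. For both male pairs together (3), no filter gave 4. In transgene females (0), no filter gave 2, DESeq2 1 and leaving out a library 0 to 1. In flox females (0), no filter gave 2, DESeq2 1 and leaving out a library 0 to 1; with a replicate block it was 1 (Irs2, adjusted p = 0.0196) and 15 genes were called in all against 19. The labels do not say that the numbers pair these samples. Same-numbered deviations from the group means correlated at -0.20, -0.033 and -0.10. Deviations of 3 libraries from their own mean are not independent, so this cannot decide whether libraries were matched. No paired analysis was possible elsewhere because the numbers only name samples. For both female pairs together (0), DESeq2 gave 2 and leaving out a library 0 to 1. In transgene males (1), limma-voom gave 0, DESeq2 2, the 6 transgene males alone 0 and leaving out a library 0 to 3. In flox males (1), RLE gave 0, limma-voom 0, no filter 3, DESeq2 4, the 6 flox males alone 4 and leaving out a library 0 to 1. Between genotypes, the vehicle males (1) gave 0 when fitted alone and 0 to 1 with a library left out, and the tamoxifen males (1) gave 3 with no filter, 3 with DESeq2 and 0 to 1 with a library left out. The transgene minus flox responses called 0 members in every setting. The cause of these changes was not tested. Over all genes, counts moved by more than 1.5 times in some setting for all comparisons: 660 to 1761 against 1472 for the mean of the 4 pairs, 43 to 314 against 118 for the female minus male response, 37 to 941 against 187 in transgene females, 3 to 329 against 19 in flox females, 27 to 317 against 139 in transgene males, 143 to 917 against 452 in flox males, 221 to 874 against 486 in females, 392 to 1020 against 683 in males, 44 to 594 against 148 between vehicle males, 280 to 1301 against 817 between tamoxifen males, and, for the transgene minus flox response, 0 to 75 against 2 in males, 0 to 42 against 0 in females and 1 to 20 against 2 over both. Igf2, at 11 to 66 counts, is the member whose depth limits it most.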

Other observations

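After the mean of each group was subtracted, the 2 genes most like each member were taken over the 24 libraries among 11183 genes. All of them lay outside the pathway list. Such correlations share library preparation and depth and are given as descriptions. Irs2 went with Sik1 (Pearson r = 0.911, Spearman rho = 0.785) and Fosl2 (0.899, 0.787), a kinase gene and an AP-1 gene both known to respond to cyclic AMP. Vehicle library 3 of flox males had the highest level of Irs2, of Sik1 at 97.7 CPM and of Fosl2 at 54.1 CPM, against medians of 22.8 and 20.8 CPM for the 2 genes, and without the 2 libraries farthest in Irs2 the r was 0.756 and 0.729. Igfbp5 went with Daxx (r = 0.923, rho = 0.937) and Nck2 (0.874, 0.849), Akt2 with Fam213b (0.902, 0.869) and Ddx23 (0.901, 0.910), and Insr with U2surp (0.824, 0.784) and Kin (0.822, 0.833). The nearest gene was Hist1h1d for Igf1 (0.817, 0.803), Trmt1l for Irs1 (0.819, 0.784), Fam149b for Grb10 (0.797, 0.796) and Bach2 for Igf1r (0.766, 0.786). For Pik3r1 it was Pop1 (0.808, 0.621), whose r was 0.604 without the 2 farthest libraries, and for Igf2 it was Plekhh1 (0.772, 0.623), whose r was 0.567 without them.

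For 5 of the members the vehicle libraries of females and males did not overlap, which was not tested because sex and table cannot be told apart. How many of all genes separate in the same way was not counted. The number is therefore a description and not a trait of these members. Igf1 lay at 3.56 to 7.57 CPM in the 6 vehicle females and at 10.8 to 16.1 CPM in the 6 vehicle males. Igf2 lay at 0.969 to 1.80 CPM in vehicle females and at 0.386 to 0.762 CPM in vehicle males. Irs1 lay at 90.7 to 147 CPM in vehicle females and at 24.8 to 45.4 CPM in vehicle males. Grb10 lay at 54.7 to 90.8 CPM in vehicle females and at 21.01 to 31.1 CPM in vehicle males. Pik3r1 lay at 26.1 to 42.3 CPM in vehicle females and at 16.4 to 22.6 CPM in vehicle males, while tamoxifen males lay at 27.9 to 66.3 CPM.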
